A study of Arabidopsis thaliana with 7 samples.

Results

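The genes described here encode proteins of the large, 60S subunit of the cytosolic ribosome of Arabidopsis thaliana. They are a list of 55 nuclear loci for 26 proteins, RPL3 to RPL27a, and were chosen by locus identifier from the 21184 genes of the deposited table. The list was proposed with results of the same comparison known, so the counts and changes of its members describe these libraries and no test of the list is given. RNA sequencing of polyadenylated RNA was done on whole seedlings of tt4-11, which the labels call a null line for chalcone synthase, the enzyme that opens the flavonoid pathway, and of the wild type Col-0. The tt4-11 libraries are replicates 2, 3 and 4, and the Col-0 libraries are replicates 1, 2, 3 and 4. Both groups were 5 days past germination, grown on MS medium with 2% sucrose in unbroken light (about 100 µE) at 22 °C. The mutant is 1 line, and no label says whether the replicates came from separate sowings, so p-values measure the spread between these libraries only.

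A ribosomal protein is needed in a fixed proportion to the others, because a subunit holds a single copy of nearly every protein. In Arabidopsis most of these proteins are made from small families of duplicated genes, called paralogs here, which encode nearly the same protein from different loci. Their transcripts are abundant in growing tissue, and mutants in single genes of the large subunit, such as the PIGGYBACK genes RPL10aB and RPL5A, are known for altered leaf shape.

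Values are scaled reads per gene, summed over its transcript models, and the libraries hold between 2021368 and 2205449 reads. A change is the difference of group means of log2(scaled reads + 1), tt4-11 minus Col-0, with its standard error (SE), from limma fitted over 13301 genes that passed a filter on low values. Means are given ± SD, with n = 3 in tt4-11 and n = 4 in Col-0. Calls were made at a p under 0.05, two-sided, after Benjamini-Hochberg adjustment over all 13301. TT4, the gene for chalcone synthase, had 58.0, 96.7 and 54.9 scaled reads in tt4-11, against 3003, 2571, 3148 and 2464 in Col-0, so no library went against its label. Of the 5 root markers 4 were in the table, and 0 were called, with a median change of -0.50 and a negative change in each. Their summed level, nearly all of it BGLU23, overlapped between the groups, as did that of the 5 green shoot markers. The other 3 root markers summed to 47.7, 46.0 and 48.2 in tt4-11, against 69.7, 77.9, 75.7 and 58.0 in Col-0, so without BGLU23 the groups were apart. Among them EXPA7, an expansin of root hair cells, had -0.87 (SE 0.30, adjusted p = 0.0691). The 9 seed storage genes summed to 1520, 1020 and 388 in tt4-11, against 321, 322, 623 and 133 in Col-0. Of 7 tested, 5 (AT2S3, AT2S4, CRB, OLEO1 and OLEO2) were called higher in tt4-11, as were 7.07% of all tested genes. The groups overlapped in each of these 5, with tt4-11 replicate 4 among the Col-0 libraries. The 10 markers of dividing cells summed to 340, 344 and 393 in tt4-11, against 460, 431, 399 and 400.0 in Col-0, so these groups did not overlap. Gene by gene, the groups were apart in PCNA and PCNA2 only, both lower in tt4-11, and 5 of the 8 tested had a negative change. The part of all these marker lists in the results below was not tested. In whole seedlings fewer cells of a type and less RNA per cell cannot be told apart.

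Transcripts of large-subunit proteins were lower in tt4-11 than in Col-0 across many families. Together the 54 members in the table held 24551, 24763 and 25146 scaled reads in tt4-11, against 34901, 29219, 31562 and 30279 in Col-0. Every tt4-11 library lay under every Col-0 library, and tt4-11 stood at 0.788 of Col-0. As a share of all reads in the table, they took 1.22 ± 0.012% in tt4-11 (SD, n = 3) and 1.53 ± 0.089% in Col-0 (SD, n = 4).

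Of 46 members that passed the filter, 23 were called lower in tt4-11 and 0 higher, where 6.55% of all tested genes were called lower and 7.07% higher. With edgeR and with DESeq2 on recovered reads, 22 and 20 were called lower, and 0 higher with either. A further 15 had a negative change without a call and 8 a positive one, of which RPL6A, RPL7B and RPL23 at AT1G04480 turned negative without Col-0 replicate 1 (-0.03, -0.02 and -0.02). In 30 members every tt4-11 library lay under every Col-0 library, against 12.9% of all tested genes, and in the other 16 the groups overlapped. The median change was -0.39, a fold of 0.763, beside a median of -0.01 over all tested genes, and the changes ran from -0.79 to 0.33. The lowest fold was 0.579, in RPL19C. With a trend of change with transcript length removed, 13 of the 23 calls were kept and 10 ended, among them those of RPL7AA, RPL10A, RPL12A, RPL12B, RPL13D, RPL17A, RPL18B, RPL19B and RPL24B (adjusted p between 0.0566 and 0.229). Of all 13301 tested genes, 639 were called lower with that trend removed. The count of members called lower was 14, 12 and 12 without tt4-11 replicates 2, 3 and 4 in turn, and 10 calls held whichever library was left out.

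**Figure D1:**
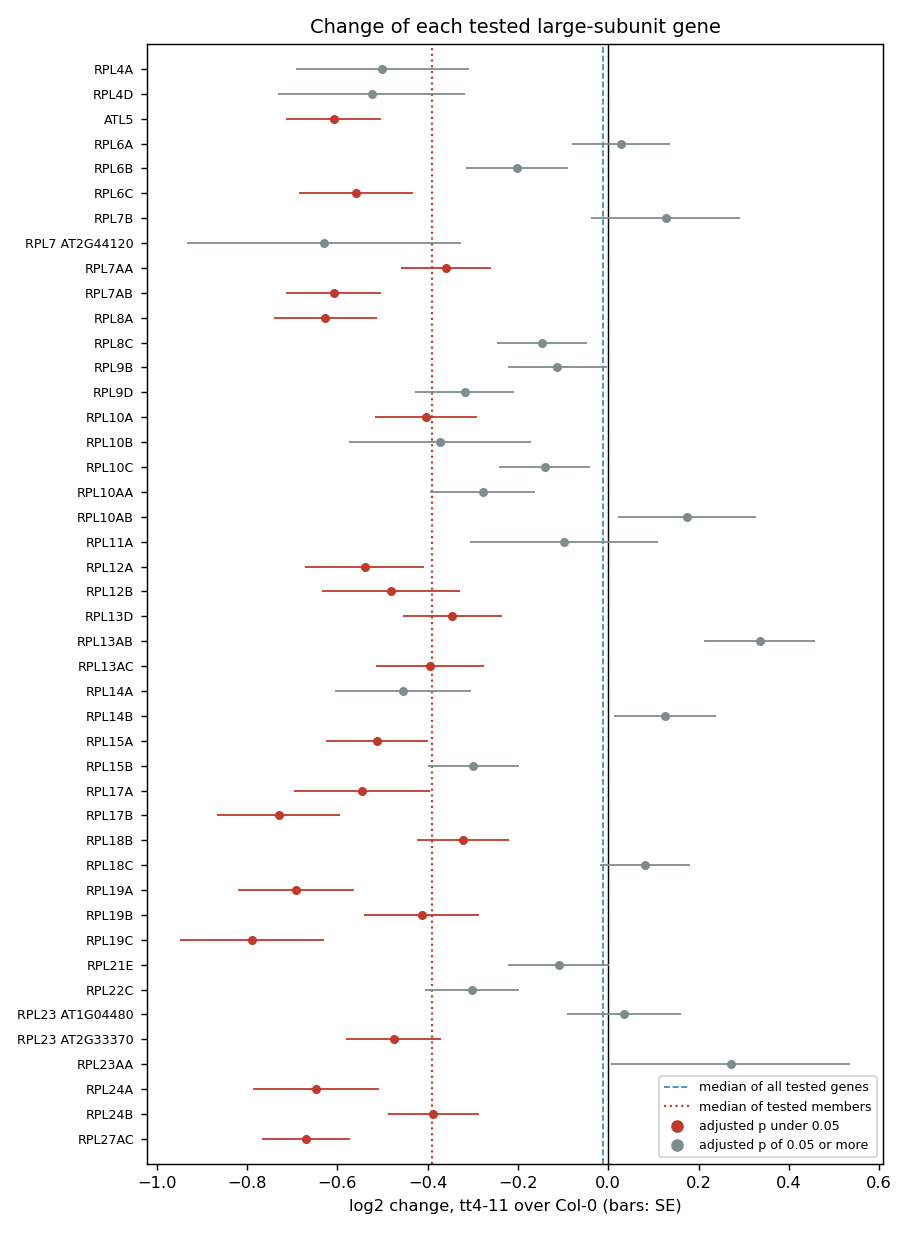
Change in log2(scaled reads + 1), tt4-11 over Col-0, of 44 of the 46 tested members in family order, with bars for the standard error; red points are called at an adjusted p under 0.05. The called members lie between -0.79 and -0.32, and 8 members lie right of 0, none of them called.

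The summed level had an SD of 301 scaled reads over the tt4-11 libraries and of 2467 over the Col-0 libraries. The median deviation of the members from the Col-0 mean was -0.32, -0.41 and -0.40 in tt4-11 replicates 2, 3 and 4, and lay between -0.08 and 0.04 in the Col-0 libraries. Col-0 replicate 1 held the highest of the Col-0 values for 22 of 46 tested members and the lowest for 13. Without that library 24 members were called lower, and the log2 difference of the summed level was -0.29, against -0.34 with all libraries.

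**Figure D2:**
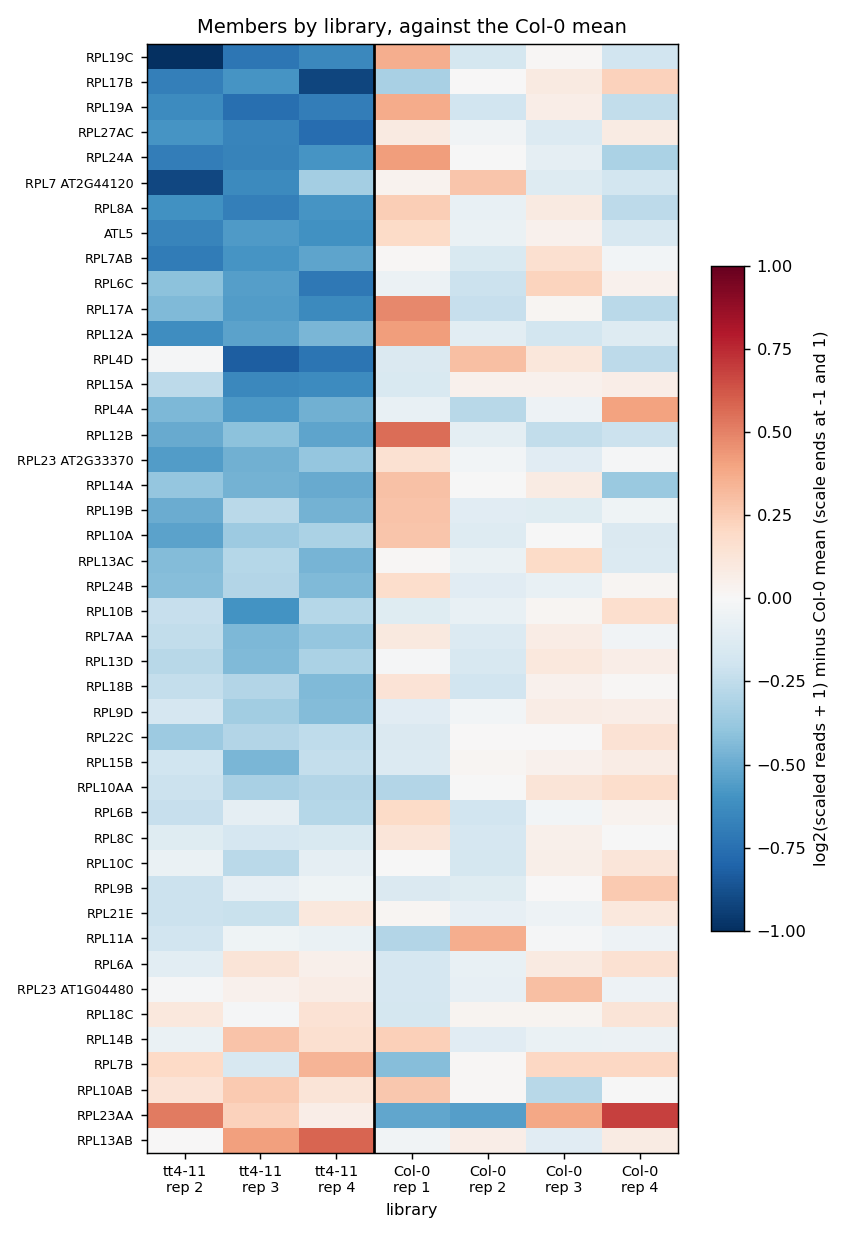
Heat map of log2(scaled reads + 1) of 44 of the 46 tested members minus their mean in Col-0, with the 3 tt4-11 libraries left of the black line and the 4 Col-0 libraries right of it. Blue fills most of the tt4-11 columns, and the 2 lowest rows, RPL23AA and RPL13AB, are red in at least 2 tt4-11 libraries.

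The other members could not be tested. RPL3 at AT1G43170, whose protein reaches toward the peptidyl transferase centre, has 9 annotated models and no row in the table. RPL5B, RPL10AC, RPL13B, RPL13a at AT3G07110, RPL13AD, RPL22B, RPL23 at AT3G04400 and RPL23AB fell under the filter, with group means of at most 4.37 in tt4-11 and 8.52 in Col-0. All 8 of them have at least 2 annotated models, while all 31 members with 1 model passed. The median of the Col-0 means was 56.4 scaled reads over the 23 members in the table with several models and 532 over those with 1, and whether the counting of models set these values was not tested, so a low value of such a gene is not read as low expression. Among members with 1 model 17 of 31 were called lower, beside 8.23% of all tested genes with 1 model, and among tested members with several models 6 of 15 were.

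A stretch of 120 bases before the annotated start is shown for 8 genes of 4 proteins, chosen after their values were seen: RPL24 and RPL19, with every tested paralog called lower, and RPL14 and RPL7, with none. Letters are given 5′ to 3′ on the gene's strand from TAIR10.1 (the authors' build is not given in the sources used here). Capitals mark the site II element, TGGGCC or TGGGCT on either strand, and the telo-box, AAACCCTA on either strand, both of which are known from promoters of plant ribosomal protein genes. None of these stretches overlaps another annotated gene.
RPL24A at chr2:15352014-15352133, minus strand: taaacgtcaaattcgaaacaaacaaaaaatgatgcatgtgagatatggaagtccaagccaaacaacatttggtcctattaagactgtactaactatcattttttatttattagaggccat
RPL24B at chr3:19662026-19662145, minus strand: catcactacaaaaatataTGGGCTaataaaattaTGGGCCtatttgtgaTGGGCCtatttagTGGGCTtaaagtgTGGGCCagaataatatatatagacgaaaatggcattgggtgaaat
RPL19A at chr1:609535-609654, minus strand: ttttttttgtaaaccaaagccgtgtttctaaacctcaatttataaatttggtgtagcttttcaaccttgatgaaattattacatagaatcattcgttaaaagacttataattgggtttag
RPL19C at chr4:980699-980818, minus strand: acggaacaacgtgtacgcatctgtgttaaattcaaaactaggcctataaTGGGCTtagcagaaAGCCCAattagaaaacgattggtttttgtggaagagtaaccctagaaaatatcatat
RPL14A at chr2:8813712-8813831, plus strand: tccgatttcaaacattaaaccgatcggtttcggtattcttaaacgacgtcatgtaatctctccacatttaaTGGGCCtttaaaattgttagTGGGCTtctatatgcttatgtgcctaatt
RPL14B at chr4:13595253-13595372, minus strand: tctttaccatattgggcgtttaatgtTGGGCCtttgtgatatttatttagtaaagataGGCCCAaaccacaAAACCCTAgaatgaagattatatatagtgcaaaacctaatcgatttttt
RPL7 AT2G44120 at chr2:18251157-18251276, minus strand: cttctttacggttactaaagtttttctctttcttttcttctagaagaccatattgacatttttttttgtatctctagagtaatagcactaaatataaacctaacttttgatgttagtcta
RPL7B at chr2:134456-134575, minus strand: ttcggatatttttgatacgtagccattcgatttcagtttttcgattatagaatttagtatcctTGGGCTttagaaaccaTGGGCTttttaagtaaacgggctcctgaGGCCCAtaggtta

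RPL24B held 5 site II elements in its stretch and RPL24A none, and both genes were called lower. RPL19A and RPL19C, which were both called lower as well, held 0 and 2. RPL14A and RPL14B held 2 each, with a telo-box in RPL14B only, and RPL7 AT2G44120 and RPL7B held 0 and 3. Over 300 bases, 41 of 55 members (74.5%) held a site II element, against 18.6% of 36559 annotated genes and 25% of the tested ones. The telo-box stood in 11 members (20%) and in 5.31% of annotated genes, and 2 or more site II elements in 50.9% of members and 10.8% of annotated genes. TATAAA, also searched on both strands, stood in 47.3% of members and 49.9% of annotated genes. In 27 members this longer window runs into another annotated gene. A site II element was in 17 of 23 called members (73.9%) and in 18 of 23 tested members without a call (78.3%), a description with no test.

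The proteins around the catalytic centre and the peptide exit tunnel showed falls and members without a call. RPL8, which lies close to the peptidyl transferase centre, is made from RPL8A and RPL8C. RPL8A (chr2:7837067-7838476), an abundant transcript, had 1215, 1148 and 1226 in tt4-11, against 2195, 1749, 1968 and 1537 in Col-0. The groups were apart, and the change was -0.63 (SE 0.11, adjusted p = 0.00226). RPL8C averaged 524 ± 8.52 in tt4-11 and 582 ± 48.5 in Col-0, with a change of -0.15 (SE 0.10, adjusted p = 0.352) and overlapping groups.

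RPL4 and RPL17 line the exit tunnel. RPL17B had 173, 185 and 147 in tt4-11, against 223, 279.7, 297 and 327 in Col-0. RPL17A stood at 290.1, 267 and 253 in tt4-11, against 549, 335, 399.8 and 327 in Col-0. Both paralogs were under Col-0 in every tt4-11 library, with changes of -0.73 (SE 0.14, adjusted p = 0.0027) for RPL17B and -0.55 (SE 0.15, adjusted p = 0.0253) for RPL17A. The RPL17A call ended without any 1 of tt4-11 replicates 2, 3 and 4 or Col-0 replicate 3, with an adjusted p up to 0.0986. RPL4A and RPL4D, which have 2 models each and low values here, had changes of -0.50 (SE 0.19, adjusted p = 0.0945) and -0.52 (SE 0.21, adjusted p = 0.103).

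RPL27a and RPL15 reach into the RNA core of the subunit. RPL27AC (chr1:26620821-26621779), known from mutants with altered leaf and embryo development, had 701, 668 and 624 in tt4-11, against 1126, 1030.4, 961 and 1115 in Col-0. The groups were apart, and its change of -0.67 (SE 0.10, adjusted p = 0.000423) had the lowest p of all members. RPL15A had 618, 472 and 478 in tt4-11, against 664, 763, 762 and 776 in Col-0, and fell with a change of -0.51 (SE 0.11, adjusted p = 0.00748). That call ended without tt4-11 replicate 3 (adjusted p = 0.0538). RPL15B averaged 699.7 ± 66.7 in tt4-11 and 859 ± 53.6 in Col-0 and missed the threshold with -0.30 (SE 0.10, adjusted p = 0.0609), although every tt4-11 library lay under Col-0.

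RPL10 is a protein added late in the cytoplasm, and RPL10A is also known as a target of the antiviral receptor kinase NIK1. RPL10A had 1146, 1296 and 1338 in tt4-11, against 2015, 1519.6, 1662 and 1505 in Col-0. It fell with a change of -0.40 (SE 0.11, adjusted p = 0.026), a call lost without any 1 tt4-11 library or without Col-0 replicate 3, with an adjusted p up to 0.122. RPL10C had 1093, 949 and 1075 in tt4-11, against 1143, 1011, 1192 and 1241 in Col-0. Its groups overlapped and its change was -0.14 (SE 0.10, adjusted p = 0.382). RPL10B, low in the table, had -0.37 (SE 0.20, adjusted p = 0.237).

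RPL5 and RPL11 form a particle with the 5S RNA before they enter the subunit. RPL5A, which the file names ATL5 and which is the PIGGYBACK3 gene, had 402, 428 and 418 in tt4-11, against 724, 606, 653 and 567 in Col-0. All 3 tt4-11 values lay under the 4 Col-0 values, with a change of -0.61 (SE 0.10, adjusted p = 0.00147). RPL11A, the only RPL11 gene in the list, averaged 31.9 ± 1.74 in tt4-11 and 34.7 ± 6.90 in Col-0, and its groups overlapped. Its change of -0.10 (SE 0.21, adjusted p = 0.796) turned positive without Col-0 replicate 2 (0.02) and with the length trend removed (0.03). Of the RPL11 genes outside the list, AT3G58700 was called lower (-0.63, SE 0.15, adjusted p = 0.0133). AT4G18730 (-0.26, SE 0.10, adjusted p = 0.0942) and AT5G45775 (-0.12, SE 0.13, adjusted p = 0.577) were not called.

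RPL19 and RPL24 reach across to the small subunit as bridges, and each tested paralog of both was called lower, although the calls of RPL19B and RPL24B ended with the length trend removed. RPL19A, the most abundant of the 3 RPL19 genes per kilobase, had 1501, 1373 and 1437 in tt4-11, against 3007, 2032, 2425 and 1956 in Col-0. RPL19B had 166, 193 and 168 in tt4-11, against 285, 215, 214 and 226 in Col-0. RPL19C (chr4:979158-980698), the least abundant, had 63.6, 77.3 and 81.9 in tt4-11, against 165, 113, 129 and 112 in Col-0. No tt4-11 library reached the lowest Col-0 library in any of the 3. RPL19C had the most negative change of all members, -0.79 (SE 0.16, adjusted p = 0.00455), beside -0.69 (SE 0.13, adjusted p = 0.00256) for RPL19A and -0.41 (SE 0.13, adjusted p = 0.04) for RPL19B. The RPL19B call ended without any 1 tt4-11 library and without Col-0 replicate 1 or 4, with an adjusted p up to 0.139.

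RPL24A had 282, 286 and 302 in tt4-11, against 607, 453, 426 and 365 in Col-0. RPL24B, the SHORT VALVE1 gene known for its role in flower development and in translation after upstream reading frames, had 611, 672 and 606 in tt4-11, against 927, 760.3, 780.2 and 834 in Col-0. Neither gene overlapped between the groups, and the changes were -0.65 (SE 0.14, adjusted p = 0.00668) for RPL24A and -0.39 (SE 0.10, adjusted p = 0.019) for RPL24B. The RPL24B call ended without tt4-11 replicate 2 or 4, with an adjusted p up to 0.0827. Per kilobase of transcript, RPL24A stood at 299 in tt4-11 and 477 in Col-0 and RPL24B at 727 in tt4-11 and 953 in Col-0.

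RPL23, a further bridge protein, has 3 loci in the list, which the file names alike. RPL23 at AT2G33370 had 264, 278 and 298 in tt4-11, against 433, 383, 359 and 385 in Col-0. The paralog at AT1G04480 had 187, 194 and 198 in tt4-11, against 168, 178, 232 and 182 in Col-0. The first fell, with a change of -0.48 (SE 0.11, adjusted p = 0.00799), a call kept whichever library was left out. For the second the groups overlapped and the change was 0.04 (SE 0.13, adjusted p = 0.885).

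RPL12 forms the base of the stalk that binds translation factors, and both of its genes in the list were called lower. RPL12C, a further RPL12 gene outside the list, averaged 203 ± 11.1 in tt4-11 and 177 ± 21.7 in Col-0. Its groups overlapped and it was not called, with a change of 0.20 (SE 0.12, adjusted p = 0.297). RPL12A had 450.1, 478 and 505 in tt4-11, against 926, 646, 609 and 636 in Col-0. RPL12B had 684, 729 and 673 in tt4-11, against 1429, 906, 816 and 838 in Col-0. In both, Col-0 replicate 1 was far above the other Col-0 libraries, and every tt4-11 library was under all of them. The changes were -0.54 (SE 0.13, adjusted p = 0.0128) for RPL12A and -0.48 (SE 0.15, adjusted p = 0.0474) for RPL12B. The RPL12A call ended without tt4-11 replicate 2 or 3 (adjusted p up to 0.0629), and the RPL12B call without any 1 tt4-11 library or Col-0 replicate 2 (adjusted p up to 0.137). With the length trend removed neither was called (adjusted p = 0.0566 for RPL12A and 0.121 for RPL12B). RPL9, near the site where those factors act, was not called, with changes of -0.32 (SE 0.11, adjusted p = 0.065) for RPL9D and -0.11 (SE 0.11, adjusted p = 0.532) for RPL9B, which stood at 0.01 with the length trend removed. RPL10a forms the mobile stalk on the other side, and neither tested gene was called, with -0.28 (SE 0.12, adjusted p = 0.123) for RPL10AA and 0.17 (SE 0.15, adjusted p = 0.482) for RPL10AB, the PIGGYBACK1 gene.

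RPL18 lies on the outside of the subunit and has no counterpart in bacteria. RPL18B had 1871, 1801 and 1623 in tt4-11, against 2426, 1927, 2267 and 2218 in Col-0. RPL18C averaged 2253 ± 128 in tt4-11 and 2134 ± 185 in Col-0. The groups of RPL18B were apart and its change was -0.32 (SE 0.10, adjusted p = 0.0472), a call that ended without any 1 library other than Col-0 replicate 2, with an adjusted p up to 0.194. In RPL18C they overlapped, with a change of 0.08 (SE 0.10, adjusted p = 0.63).

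RPL7a, RPL13 and RPL6 are further proteins that bacteria lack. RPL7AA had 756, 656 and 684 in tt4-11, against 956, 815, 941 and 875 in Col-0. RPL7AB had 305, 329.6 and 344 in tt4-11, against 501, 448, 557 and 489 in Col-0. Both were lower in each tt4-11 library, with changes of -0.36 (SE 0.10, adjusted p = 0.0252) for RPL7AA and -0.61 (SE 0.11, adjusted p = 0.00155) for RPL7AB. The RPL7AA call ended without tt4-11 replicate 3 or 4 or Col-0 replicate 3 (adjusted p up to 0.12). RPL13D had 239, 214 and 232 in tt4-11, against 287, 259.5, 312 and 303 in Col-0, a change of -0.35 (SE 0.11, adjusted p = 0.047). This call ended without any 1 tt4-11 library and without Col-0 replicate 3 or 4, with an adjusted p up to 0.185.

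Among the 3 RPL6 genes, RPL6C had 213, 193 and 172 in tt4-11, against 273, 244, 332 and 293 in Col-0. RPL6B had 308, 339.7 and 297 in tt4-11, against 413, 316, 354 and 370 in Col-0. RPL6A, the most abundant of them per kilobase, had 520.3, 612 and 579.7 in tt4-11, against 496, 532, 596 and 619 in Col-0. RPL6C alone was called, with -0.56 (SE 0.13, adjusted p = 0.00823), a call that ended without tt4-11 replicate 4 (adjusted p = 0.0538). The groups overlapped in RPL6B and RPL6A, with changes of -0.20 (SE 0.11, adjusted p = 0.25) and 0.03 (SE 0.11, adjusted p = 0.893). RPL6B and RPL6C lie next to each other on chromosome 1 and their coding sequences are 94.2% identical, the closest of 37 paralog pairs.

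None of the 8 members with a positive change was called with all libraries. RPL13AB (chr3:9064525-9066180) had 1111, 1474 and 1660.2 in tt4-11, against 1081, 1156, 1024 and 1170 in Col-0. Replicate 2 lay among the Col-0 libraries, and tt4-11 replicates 3 and 4 lay above all of them. Its change, the highest of all members, was 0.33 (SE 0.12, adjusted p = 0.0795), and it was called higher without tt4-11 replicate 2 (0.50, adjusted p = 0.0181). RPL13AC, its paralog, had 156, 173 and 152 in tt4-11, against 213, 201, 241 and 192 in Col-0 and fell, with a change of -0.39 (SE 0.12, adjusted p = 0.0376). That call ended without any 1 tt4-11 library and without Col-0 replicate 2 or 3, with an adjusted p up to 0.142.

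RPL14B had 1199, 1525 and 1398 in tt4-11, against 1476, 1161, 1198 and 1202 in Col-0. RPL14A had 104, 97.6 and 95.3 in tt4-11, against 166, 136, 144 and 105 in Col-0. The groups overlapped in RPL14B and not in RPL14A, where the change of -0.45 (SE 0.15, adjusted p = 0.0559) was called without Col-0 replicate 4 (-0.58, adjusted p = 0.0131). RPL14B had a change of 0.13 (SE 0.11, adjusted p = 0.49). Of the listed RPL7 genes the more highly counted, RPL7B, had 163, 127 and 180.1 in tt4-11, against 105, 143, 164 and 164 in Col-0. The other, AT2G44120, had 7.49, 9.21 and 11.6 in tt4-11, against 15.3, 18.3, 13.6 and 13.0 in Col-0. The groups were apart in AT2G44120 only, and neither gene was called, with 0.13 (SE 0.17, adjusted p = 0.651) for RPL7B and -0.63 (SE 0.30, adjusted p = 0.179) for AT2G44120. RPL23AA, whose protein stands at the tunnel exit, ranged from 54.9 to 75.8 in tt4-11 and from 35.6 to 85.0 in Col-0. Its groups overlapped, and its change was 0.27 (SE 0.26, adjusted p = 0.532).

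Paralogs of 1 protein were not always called alike. Counting only paralogs in the list, 18 proteins had at least 2 tested. Of these, 6 had every tested paralog called lower, among them RPL7a, RPL12, RPL17, RPL19 and RPL24. A further 7 had some, and RPL4, RPL7, RPL9, RPL10a and RPL14 had none. RPL12C, outside the list, was not called (0.20, adjusted p = 0.297), so the count of 6 holds for the list only. With the length trend removed, 0 proteins had every tested paralog called lower, 10 had some and 8 had none. Within a protein the changes of its paralogs lay 0.36 apart on the log2 scale in the median, and up to 0.76 apart in RPL7. As a share of the scaled reads of a protein's listed genes, 1 or more paralogs did not overlap between the groups in 10 proteins, and all shares overlapped in the other 8. No such share exists for genes at large, so these counts have no background here.

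Of the RPL13a reads, RPL13AB held 87.6, 89.4 and 91.4% in tt4-11, against 83.4, 85.1, 80.8 and 85.8% in Col-0. Of the RPL6 reads, RPL6A held 49.96, 53.5 and 55.3% in tt4-11, against 42.0, 48.7, 46.5 and 48.3% in Col-0. Of the RPL23 reads, AT1G04480 held 40.9, 41.1 and 39.8% in tt4-11, against 27.9, 31.7, 38.9 and 31.9% in Col-0. For each of these 3 paralogs, none of them called, the share was higher in every tt4-11 library than in any Col-0 library. They were chosen by changes in these same libraries, so a higher share was largely set by the choice. RPL6B, also without a call, held 29.2 ± 0.769% in tt4-11 and 30.1 ± 3.28% in Col-0, and its shares overlapped. RPL14B held 93.2 ± 1.04% in tt4-11 and 90.2 ± 1.22% in Col-0, and RPL7B 94.3 ± 1.21% in tt4-11 and 90.2 ± 2.67% in Col-0 (SD, n = 3 and 4). For RPL18C the share was 56.1 ± 2.77% in tt4-11 and 49.2 ± 4.01% in Col-0. For RPL8A, the more abundant RPL8 gene, it was 69.5 ± 0.565% in tt4-11 and 76.0 ± 2.29% in Col-0, and for RPL15A 42.7 ± 2.87% in tt4-11 and 46.3 ± 0.372% in Col-0. A family's shares sum to 100%, so a higher share of 1 paralog and a lower share of the other are a single measurement. In RPL7, RPL13a, RPL18 and RPL23, 1 or more listed genes have several models. Whether the counting of models set those shares was not tested.

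**Figure D3:**
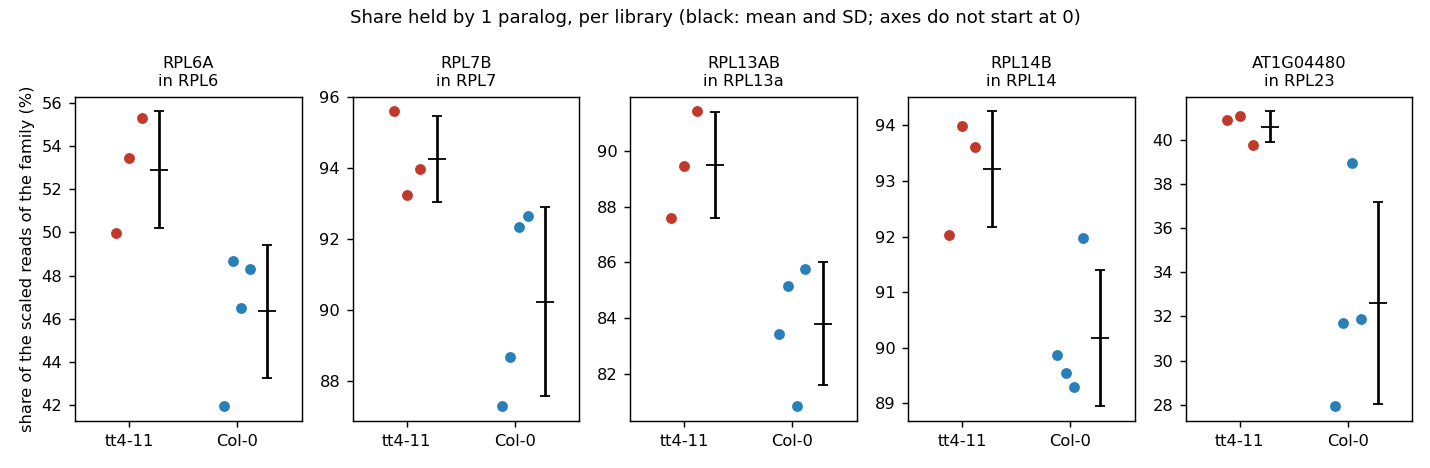
Share of the scaled reads of a protein's listed genes held by the named paralog in each library (red for tt4-11, blue for Col-0, black for mean and SD), for the 5 proteins whose listed paralogs differed most in change. The paralog with the highest change is drawn. In each panel every tt4-11 library lies above every Col-0 library, by the narrowest gap in RPL14B. Both choices used the changes in these same libraries, so a higher share in tt4-11 was largely set by them.

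Reads of paralogs were mostly separable. Of 55 members 51 share no window of 100 bases, the read length, with another annotated gene, and only RPL9B (51.7% of windows, with AT1G33120) and RPL21E (17.5%, with AT1G57860) share more than 2.14%. Values of RPL9B and RPL21E are therefore uncertain. Among the tested members 10 overlap a gene on the other strand, 5 of them called (RPL13AC, RPL15A, RPL17B, RPL19C and RPL24A), and although the library kit keeps strand, the strand setting of the counting is not stated.

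Levels of different genes can be set beside each other per kilobase of the longest transcript, in members with 1 model. The highest were RPL19A, at 1296 in tt4-11 and 2124 in Col-0, RPL14B, at 1882 in tt4-11 and 1725 in Col-0, RPL8A, at 1016 in tt4-11 and 1582 in Col-0, RPL27AC, at 693 in tt4-11 and 1103 in Col-0, RPL13AB, at 1390.0 in tt4-11 and 1088 in Col-0, and RPL10C, at 903 in tt4-11 and 996 in Col-0 scaled reads per kilobase. In Col-0 the 31 members with 1 model ran from 41.0 to 2124, with a median of 477. By this measure RPL19A stood first in Col-0 and RPL14B in tt4-11. Across the 46 tested members, all measured in the same libraries, Spearman's rho of change with mean scaled reads in Col-0, not per kilobase, was -0.06. These include the 15 tested members with several models.

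Over all tested genes the change was more positive in longer transcripts, and the members are short. The members have a median length of 1110 bases (730 to 2212), against 1793 over all tested genes, and Spearman's rho of change with length was 0.29 over 13277 genes and 0.005 over the members. The trend fitted to all genes lies at -0.11 in the median at the members' lengths. With the trend removed, 13 members were called lower and 1 higher, RPL13AB (0.46, adjusted p = 0.027), and the median change was -0.28. In that setting 639 of all 13301 tested genes were called lower and 701 higher. RPL9B, RPL11A and RPL21E, with small negative changes before, then stood at 0.01, 0.03 and 0.02. The cause of the trend was not tested.

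**Figure D4:**
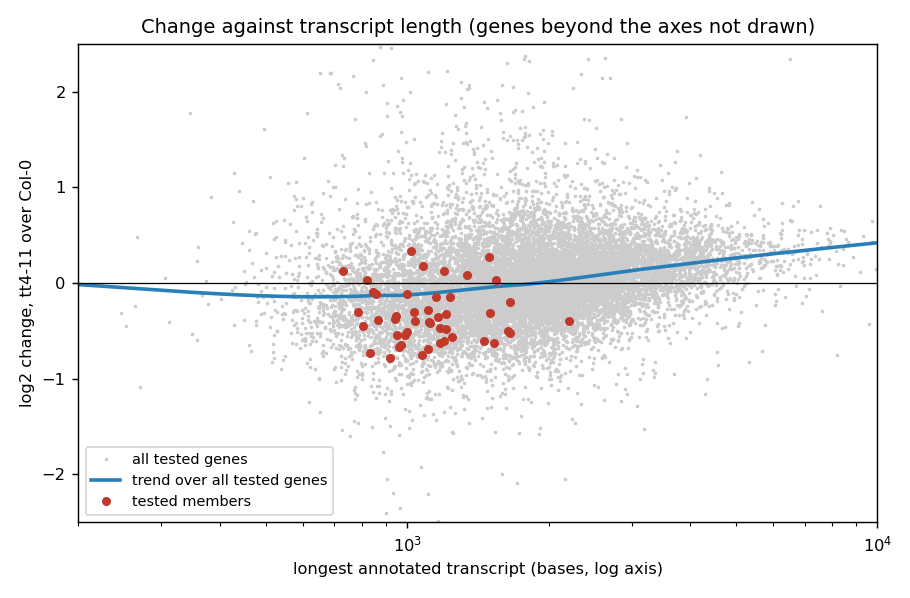
Change in log2(scaled reads + 1), tt4-11 over Col-0, against the length of the longest annotated transcript on a log axis, for all tested genes (grey), the members (red) and the trend over all genes (blue line). Most members lie under the line, whose median at their lengths is -0.11.

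Other translation genes that were called were also lower, where 6.55% of all tested genes were called lower and 7.07% higher. Of 13 tested paralogs of the same proteins outside the list, 4 were called lower (ARP2, RPL11C at AT3G58700, RPL21A at AT1G09590 and RPL27AB) and 0 higher, with a median change of -0.26. Another locus named RPL21A, AT1G09690, was not called (-0.12, SE 0.09, adjusted p = 0.425). ARP2, the second RPL3 gene, had 174, 187 and 164 in tt4-11, against 299.9, 243, 238 and 225 in Col-0, a change of -0.51 (SE 0.12, adjusted p = 0.0116). Among the 51 tested genes of the other large-subunit proteins 15 were called lower and 0 higher, with a median of -0.26. RPL35AC had 49.6, 41.4 and 27.9 in tt4-11, against 111, 92.3, 116 and 84.0 in Col-0, a change of -1.35 (SE 0.19, adjusted p = 0.000374), which is beyond any member. With the length trend removed, 9 of the 51 were called lower and 2 higher, with a median of -0.15, and 3 of the 13 outside paralogs lower, with a median of -0.13. In that setting 639 of all 13301 tested genes were called lower and 701 higher.

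The 76 tested small-subunit genes had 26 called lower and 0 higher, with a median of -0.29, and with the length trend removed 12 were called lower and 1 higher, with a median of -0.17. RPS15AD had a change of -0.66 (SE 0.13, adjusted p = 0.00303) and RPS10A of -0.70 (SE 0.14, adjusted p = 0.00335). Large-subunit assembly factors had 3 of 22 called lower and 0 higher: REIL2, which acts in late cytoplasmic maturation, changed by -0.59 (SE 0.13, adjusted p = 0.00625), MED36A, a fibrillarin, by -0.63 (SE 0.15, adjusted p = 0.0127), and the nucleolin NUCL1 by -0.42 (SE 0.12, adjusted p = 0.033). Translation elongation factors had 2 of 10 called lower and 0 higher, with -0.60 (SE 0.15, adjusted p = 0.0149) for A1 at AT1G07920 and -0.48 (SE 0.13, adjusted p = 0.0195) for AT2G18110, and 1 was called with the length trend removed. These calls are 13.6% of the tested assembly factors and 20% of the elongation factors, a few genes each, beside 6.55% of all tested genes. The summed levels of both lists overlapped between the groups. A list of 8 growth regulators, with the TOR kinase, its partners and the transcription factors TCP20 and NAC082, had 6 tested genes, 0 called in either direction and a median change of 0.27, which was 0.04 with the length trend removed. These regulators summed to 1122, 1247 and 1170 in tt4-11, against 1035, 1023, 1001 and 894 in Col-0. The sums were thus apart and higher in tt4-11, while the groups overlapped in each gene by itself. In dividing-cell markers 1 of 8 was called, PCNA, with 59.0, 51.6 and 46.2 in tt4-11, against 79.3, 73.0, 84.4 and 77.0 in Col-0 and a change of -0.58 (SE 0.15, adjusted p = 0.0201), a call that ended with the length trend removed. That is 1 gene, beside 6.55% of all tested genes called lower.

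**Figure D5:**
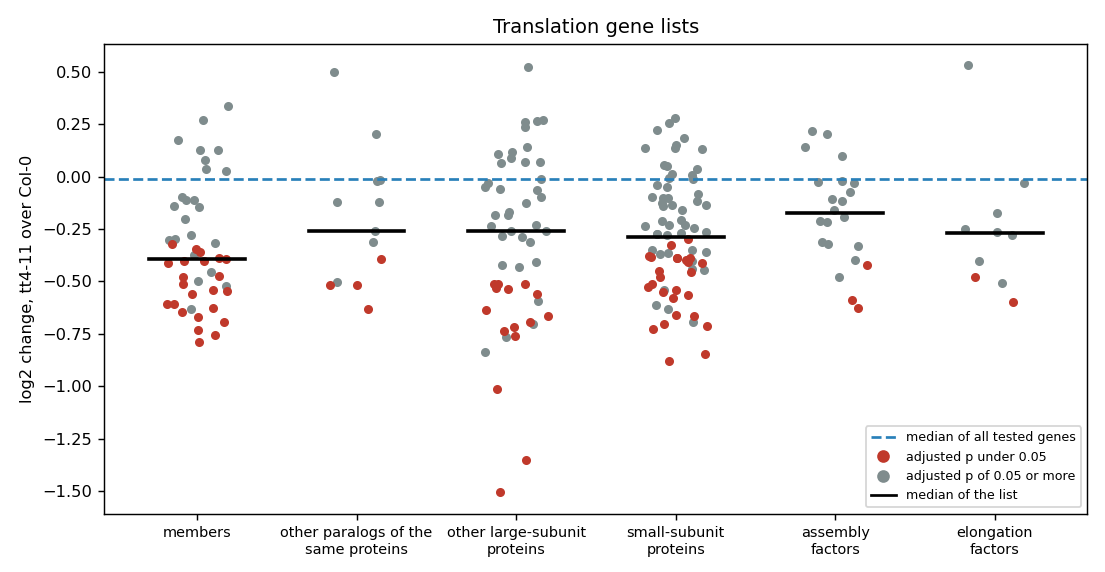
Change in log2(scaled reads + 1), tt4-11 over Col-0, of each tested gene in the member list and 5 further lists of translation genes (red, adjusted p under 0.05; black bar, median of the list; dashed line, median of all tested genes). The medians run from -0.39 in the members to -0.18 in the assembly factors, and every red point lies under 0.

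In the authors' deposited table, which gives a fold change and adjusted p per transcript model, the members have 60 models, of which 20 were lower in tt4-11 and 0 higher at an adjusted p of 0.05, beside 2.89% and 3.17% of all models. The median deposited log2 change of these models was -0.30.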

How the data were processed

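Polyadenylated RNA of whole seedlings was sequenced as single reads of 100 bases from a stranded kit, per the labels. The submitters' processing notes name TopHat2, HISAT2, HTSeq and DESeq2, while no source used here gives their versions, the build or the strand setting. The deposited signal values are read counts per transcript model that the authors scaled: each of 7 columns is a whole multiple of 1 step, and whole reads were recovered for 100% of values within 0.01. The deposited log2 fold changes and adjusted p-values of the authors were used only where named.

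The 23052 rows hold 23051 models of 21184 genes, which were matched by locus identifier. Models were summed per gene, and log2(value + 1) was fitted with limma 3.58.1 (R 4.3.3) using the trend option, with no covariate, over 13301 genes kept by filterByExpr (minimum count 10), at a Benjamini-Hochberg adjusted p of 0.05. The procedure was tested on simulated data. As an alternative, edgeR's quasi-likelihood test (4.0.16) on the recovered reads called 1008 genes higher and 855 lower, and DESeq2 (1.42.0) 748 and 670.

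TAIR10.1 gave positions, lengths, promoter windows and shared 100-base windows; it may not be the authors' build, and 21040 genes were found in it. Promoter stretches and coding identities come from that assembly, and protein sequences were not used here.

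The members and lists were chosen with earlier results of these data known. Every member may be named, and values in every library are given for the 12 tested members with the largest changes, the called members, the 6 with the highest value per kilobase among genes with 1 model, and the paralogs of the 5 families whose changes differ most. Of the other lists at most 4 genes are named, called ones first, apart from further paralogs of RPL11, RPL12 and RPL21. Those paralogs, and the called seed storage genes in full, were named after their values were seen. Genes of 1 protein, 2 of them tested, enter the counts and fits but are not reported here. Replicates 2 to 4 of both groups share numbers, but no label says what a number marks, so no block was used.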

Additional observations from a re-analysis of the deposited data

Results flagged for a closer look

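In 5 members 1 library stood far from the other 3 of the Col-0 group, by a gap that took up 0.836 to 0.885 of the range, above Dixon's 95% critical value for 4 samples, and in each it was Col-0 replicate 1. RPL12A had 926 scaled reads there, RPL12B 1429, RPL14B 1476 and RPL19B 285, each above the other Col-0 libraries, while RPL15A had 664, below them. Chance gives such a gap in about 1 in 20 groups, and 95 values were examined, 5 of which met the rule. The tt4-11 group has 3 libraries and was not examined in this way.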

How the results depend on the processing

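The median change, the summed level and the 5 paralog shares kept their direction under every alternative run, including TMM factors (median -0.39). The number of members called lower was 13 with the length trend removed and 12 at an adjusted p of 0.01; the number called higher was 1 with the trend removed, and the median change then was -0.28. With the length trend removed, 701 of all genes were higher and 639 lower, and at an adjusted p of 0.01, 394 were higher and 314 lower. Leaving out each library in turn gave 12 to 24 members lower and 0 to 1 higher, 426 to 925 of all genes higher and 437 to 857 lower, a median change of -0.42 to -0.35 and a log2 difference of the summed level of -0.38 to -0.29. Under it the share differences ran, in percentage points, from 3.04 to 4.83 for RPL7B, 4.71 to 6.63 for RPL13AB, 5.08 to 8.02 for RPL6A, 2.65 to 3.64 for RPL14B and 6.41 to 10.08 for RPL23 at AT1G04480. In 3 members a change near 0 turned negative without Col-0 replicate 1, and in RPL6A also without tt4-11 replicate 3: with each library left out, RPL6A ran from -0.0287 to 0.0934, RPL7B from -0.0159 to 0.270 and RPL23 at AT1G04480 from -0.0192 to 0.135. RPL11A turned positive without Col-0 replicate 2 (0.02), and RPL9B, RPL11A and RPL21E with the length trend removed (0.01, 0.03 and 0.02), as did RPL21E with the block and that trend removed together (0.03). The cause was not tested.

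The deviations of same-numbered libraries correlated at 0.06, 0.02 and 0.06. Those of differently numbered libraries lay between -0.10 and 0.03 among replicates 2 to 4, and reached 0.10 with Col-0 replicate 1. All of these are near 0, so they do not tell whether the shared numbers pair the samples. A replicate block over replicates 2 to 4 called 23 members lower and 0 higher, with a median of -0.35, and 904 of all genes higher and 784 lower. Under the block RPL6A stood at -0.0287, RPL7B at -0.0159 and RPL23 at AT1G04480 at -0.0192. With the block and the length trend removed together, 12 members were lower and 2 higher (RPL13AB and RPL14B), and the median was -0.22. Of all genes, 565 were then lower and 709 higher. Fitting only genes with 1 annotated model, chosen after seeing the data, left 17 members called lower. At this depth, members with a few reads could not be tested.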
